A study of Mus musculus with 8 samples.

Results

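The genes described here encode 5 members of the C/EBP family, Cebpa, Cebpb, Cebpd, Cebpe and Cebpg, taken by name from the 32285 genes of a single-cell count table of cultured mouse bone marrow. They were chosen by their levels along granulocyte stages and between the groups in these same data, so those levels are given as a description. Their levels were followed along stages of granulocyte formation, set by the transcripts of Elane (neutrophil elastase), Ngp (neutrophilic granule protein) and Retnlg (a late neutrophil gene), and between a media control and a deoxycholic acid culture. Whole bone marrow cells were grown for 1 week on irradiated AFT024 cells, a fibroblast line from embryonic mouse liver used as a feeder layer, in long-term culture medium with hydrocortisone at 1 µM. The control wells had medium alone, and the treated wells also had deoxycholic acid, a secondary bile acid, at 35 µM. Both groups were sorted for lineage-negative cells, which selects against mature cells with lineage antigens. The sources used here do not give the strain, age or sex of the mice.

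C/EBP proteins are leucine zipper transcription factors that bind DNA as pairs, with each other or with related zipper proteins. C/EBP alpha is needed for the step from common myeloid progenitors to granulocyte-monocyte progenitors, C/EBP epsilon for the genes of the secondary granules, and C/EBP beta for the rapid output of granulocytes under infection or cytokines. C/EBP delta is best known from the acute phase response, and C/EBP gamma has no strong activation domain of its own and pairs with other family members and with ATF4.

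The labels list 4 samples in each group, but the cell names in the table give only the group, so each group was treated as 1 library. No test between the groups was possible, and the intervals below are exact 95% intervals that cover counting error only. The media control held 9346 barcodes and 183462851 UMIs, and the deoxycholic acid library 8520 barcodes and 131341422 UMIs. After filtering, 8495 and 7755 cells were kept, with medians of 18831 and 14424 UMIs. Only 25 barcodes occurred in both libraries, and without them no member's ratio moved by more than its counting interval. Levels are given as UMIs per 1000000 UMIs of the cells summed (CPM). The 3′ kit counts each captured transcript end once, so levels were not divided by transcript length, and one member's level is not ranked against another's.

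The sequences upstream of 3 members, as RefSeq gives them for GRCm38.p6, are shown because Cebpb was lower with deoxycholic acid in each of the 5 stages described below, and Cebpa and Cebpg serve as relatives for comparison. Each line holds the 250 bases before the annotated start, 5′ to 3′ on the gene's strand: chr2:167688665-167688914 (plus strand) for Cebpb, chr7:35119043-35119292 (plus strand) for Cebpa and chr7:35056567-35056816 (minus strand) for Cebpg. Capitals mark matches, on either strand, to TGACG (found in cyclic AMP response elements), GGGTCA (found in nuclear receptor elements), TTNNGNAA (a loose C/EBP element), TATAAA (the TATA box) and CCAAT.
Cebpb: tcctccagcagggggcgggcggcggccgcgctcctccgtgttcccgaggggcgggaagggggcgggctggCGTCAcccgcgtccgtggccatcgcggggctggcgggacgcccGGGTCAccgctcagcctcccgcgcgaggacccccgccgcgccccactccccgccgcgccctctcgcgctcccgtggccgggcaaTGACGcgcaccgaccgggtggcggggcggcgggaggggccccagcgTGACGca
Cebpa: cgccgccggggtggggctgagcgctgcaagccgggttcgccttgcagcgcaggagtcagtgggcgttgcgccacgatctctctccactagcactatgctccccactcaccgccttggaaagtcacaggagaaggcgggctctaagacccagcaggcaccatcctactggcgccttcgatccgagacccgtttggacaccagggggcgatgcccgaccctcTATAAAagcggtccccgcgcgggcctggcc
Cebpg: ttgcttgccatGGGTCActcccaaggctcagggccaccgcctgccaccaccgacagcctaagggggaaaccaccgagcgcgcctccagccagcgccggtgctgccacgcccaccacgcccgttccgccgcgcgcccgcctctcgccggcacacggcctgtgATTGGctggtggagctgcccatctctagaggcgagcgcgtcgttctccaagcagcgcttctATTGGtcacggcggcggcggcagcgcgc

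The Cebpb window held 3 matches to TGACG, whose first bases on the printed strand lay 180, 53 and 7 bases before the start, and 1 match to GGGTCA at 137 bases. TGACG occurred at least once in 17.8% of the 32851 windows of the same length in the table, and GGGTCA in 11.6%. Cebpa had 1 match, to TATAAA at 30 bases before the start, a motif found in 12.4% of the windows. Cebpg had a GGGTCA match at 239 bases and CCAAT matches at 89 and 28 bases, with CCAAT present in 33.8% of the windows. None of the 3 windows held TTNNGNAA, which 36.8% of all windows did. TGACG was thus matched in Cebpb alone of the 3 windows, while GGGTCA was also matched in Cebpg. The Cebpb window had 81.6% GC, against 66.4% for Cebpa and 70.8% for Cebpg. The shares over all windows were not matched for GC and do not count repeated matches in a window. A match is a description of the sequence and not of binding.

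Cells were placed in 5 stages by UMIs per 10000 in each cell. Granule-low cells had under 10 of Elane and under 20 of Ngp and Retnlg (727 media control and 602 deoxycholic acid cells), Elane cells had at least 10 of Elane only (1314 and 1200), and Elane and Ngp cells had at least 10 and 20 of these (2560 and 2174). Ngp cells had at least 20 of Ngp with Elane under 10 (3556 and 3535), and Retnlg cells had at least 20 of Retnlg (338 and 244). The granule-low stage was mixed: of its cells, 370 lay in a cluster led by Hpgd and Ccr2, 215 in the basophil-like cluster and 178 in the mature neutrophil-like cluster. A further 139 lay in a cluster with stromal markers led by Cdkn2a and Cald1, 136 in a cluster led by Vcan and S100a4, and 109 in immature neutrophil-like cluster 3. Depth differed along the stages, with media control medians of 25943.5 UMIs in Elane cells and 5959 in Retnlg cells.

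**Figure D1:**
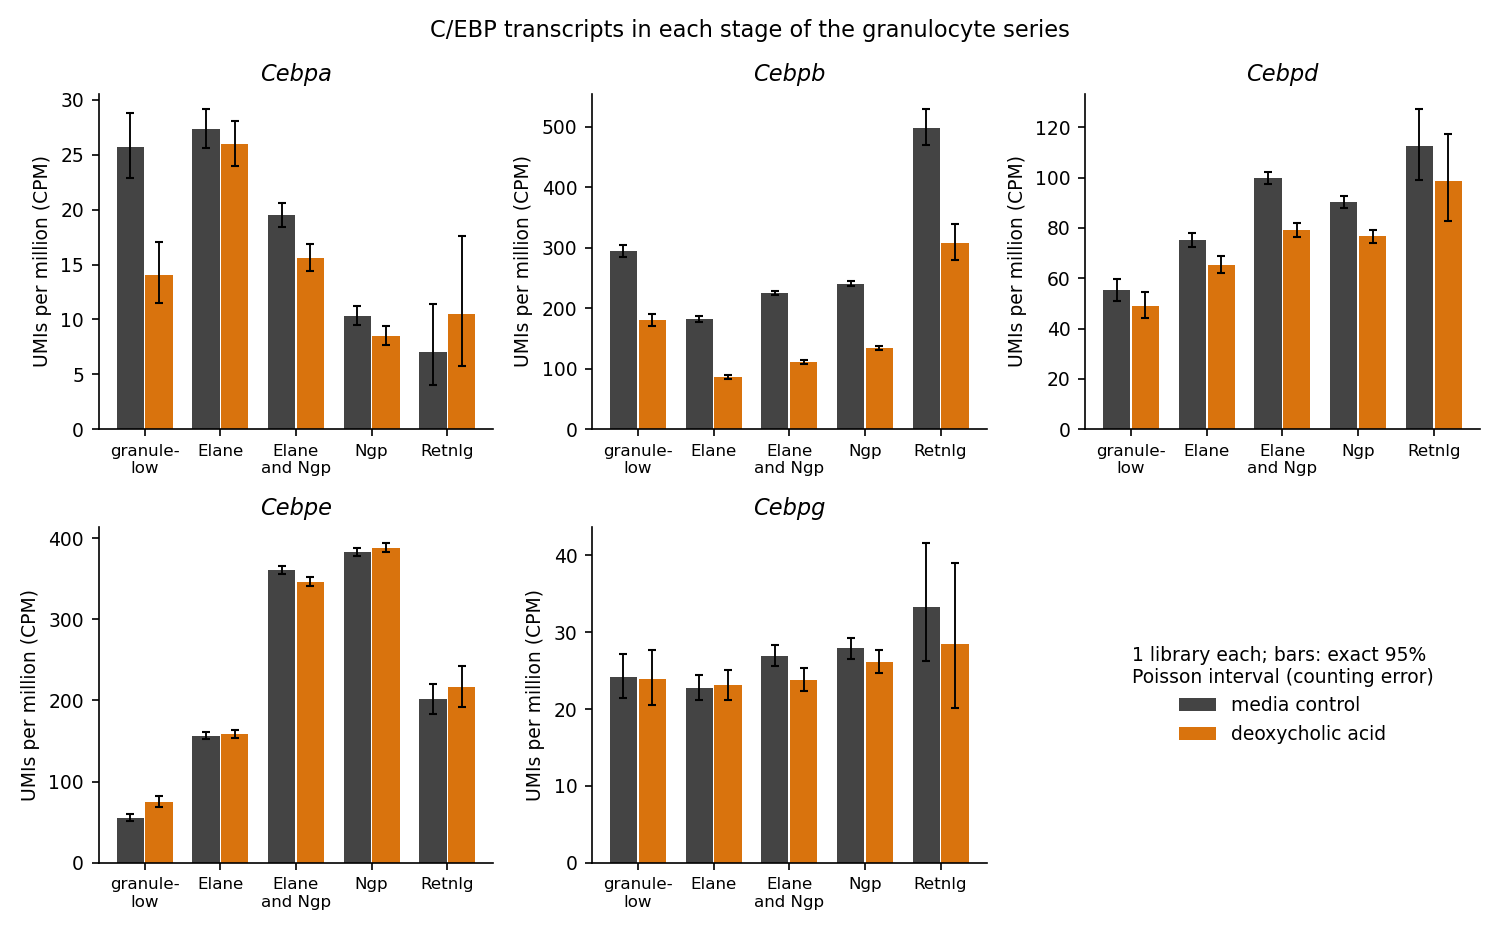
Level of each C/EBP gene in CPM (vertical axes, different scales) in the 5 stages (horizontal axes) for the media control and deoxycholic acid libraries, with exact 95% Poisson intervals. Cebpa was highest in the Elane stage, at 27.3 and 26.0 CPM, Cebpe in the Ngp and the Elane and Ngp stages, and Cebpb in the Retnlg stage, where it stood at 498 and 308 CPM.

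Cebpa, the factor of early granulocyte-monocyte commitment, was highest in the Elane stage in both libraries. In the media control it stood at 27.3 CPM (25.6 to 29.1) in the Elane stage and 25.7 (22.9 to 28.8) in granule-low cells, which overlapped. It was at 19.5 CPM (18.4 to 20.6) in Elane and Ngp cells and at 10.3 (9.50 to 11.2) in Ngp cells. With deoxycholic acid it stood at 26.0 CPM (23.9 to 28.1) in Elane cells, while granule-low cells, at 14.1 (11.5 to 17.1), overlapped with Elane and Ngp cells, at 15.6 (14.4 to 16.9). The Ngp stage was lower than the Elane stage by a log2 ratio of -1.40 (-1.56 to -1.25) in the media control and -1.61 (-1.79 to -1.42) with deoxycholic acid. Only 16 and 14 UMIs were counted in the Retnlg stage, so its 7.002 CPM (4.002 to 11.4) and 10.5 CPM (5.73 to 17.6) could not be told from the Ngp stage. Among cells with Retnlg under 20 and Elane of at least 1, Cebpa went from 27.8 CPM where Ngp was under 2 per 10000 to 21.3 between 20 and 100 and 9.75 at 400 or more. The step from 200 to 300 stood at 11.3 CPM (9.80 to 12.97) and the next at 13.7 (11.5 to 16.3), with overlapping intervals.

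Cebpe, the factor of secondary granule genes, rose from the Elane stage to the Ngp stage, over which Cebpa fell. In Retnlg cells Cebpe lay, in CPM, between its levels in the Elane and Ngp stages. By mean UMIs per media control cell, which also follow depth, Cebpe was lower in Retnlg cells (1.36) than in Elane (4.18) and Ngp cells (6.06). In the media control it stood at 55.7 CPM (51.5 to 60.1) in granule-low cells, 156 (152 to 161) in Elane cells, 360.3 (356 to 365) in Elane and Ngp cells and 383 (377 to 388) in Ngp cells. It was at 201 CPM (183 to 221) in Retnlg cells. The Elane and Ngp stage was higher than the Elane stage by a log2 ratio of 1.203 (1.16 to 1.25), and with deoxycholic acid by 1.13 (1.08 to 1.18). The largest part of the difference lay at low Ngp levels. Along the same fine steps Cebpe was at 80.9 CPM where Ngp was under 2, 187 from 2 to 20, 295 from 20 to 100 and 391 from 100 to 200, and then between 412 and 434. With deoxycholic acid these steps stood at 93.7, 175, 292 and 378 CPM, and the last at 443. Cebpe thus reached most of its level while Ngp was still under 200 per 10000.

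Cebpb, the factor of cytokine-driven granulocyte output, was highest in the Retnlg stage. In the media control it stood at 182 CPM (178 to 187) in Elane cells, 225 (221 to 229) in Elane and Ngp cells, 240.1 (236 to 244) in Ngp cells, 295 (285 to 305) in granule-low cells and 498 (469.9 to 528) in Retnlg cells. With deoxycholic acid the same stages stood at 86.0 (82.3 to 89.8), 111 (107 to 114), 135 (131 to 138), 179.8 (170.2 to 189.8) and 308 (279 to 339.7), the same order. The Retnlg stage was higher than the Ngp stage by a log2 ratio of 1.05 (0.97 to 1.14) in the media control and 1.196 (1.05 to 1.34) with deoxycholic acid. Among cells with Ngp of at least 20 and Elane under 10, Cebpb was at 236 CPM where Retnlg was under 1 per 10000, 332 from 10 to 20, 403 from 20 to 50 and 644 at 50 or more. With deoxycholic acid the same steps stood at 132, 189, 248 and 416 CPM. A share of all RNA and a number of molecules do not say the same here: Retnlg cells had fewer UMIs, and the mean number of Cebpb UMIs per media control cell was 3.37 in them against 3.801 in Ngp cells and 5.37 in Elane and Ngp cells. After each cell was thinned to 3000 UMIs, 70.4% of Retnlg cells (64.8 to 75.6) and 49.9% of Ngp cells (48.2 to 51.6) of the media control had a Cebpb UMI.

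**Figure D2:**
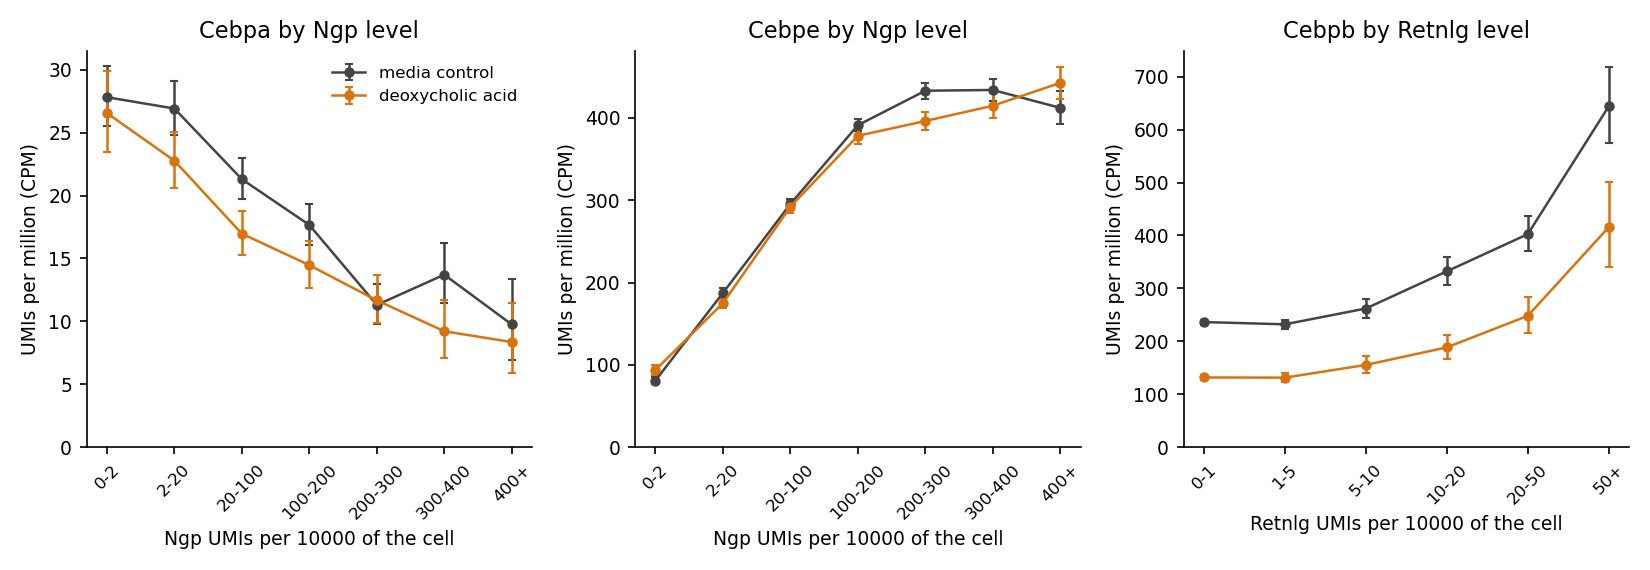
Cebpa and Cebpe by steps of Ngp (cells with Elane of at least 1 and Retnlg under 20 UMIs per 10000) and Cebpb by steps of Retnlg (cells with Ngp of at least 20 and Elane under 10), in CPM with exact 95% Poisson intervals, 1 line per library. Cebpa went down and Cebpe up with Ngp in both libraries, and Cebpb went from 236 to 644 CPM in the media control and from 132 to 416 CPM with deoxycholic acid.

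Cebpd and Cebpg varied less along the stages. In the media control Cebpd, the acute phase member, was at 55.3 CPM (51.1 to 59.8) in granule-low, 75.3 (72.4 to 78.2) in Elane, 99.8 (97.3 to 102) in Elane and Ngp, 90.3 (87.8 to 92.8) in Ngp and 112 (99.1 to 127) in Retnlg cells. The intervals of the Retnlg stage and the Elane and Ngp stage overlapped. Cebpg, the partner of other zipper proteins, stood between 22.8 CPM (21.2 to 24.4) in Elane cells and 33.3 CPM (26.2 to 41.6) in Retnlg cells. Its intervals in the granule-low, Elane and Ngp, Ngp and Retnlg stages overlapped one another.

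Because the members took different courses, the makeup of the family's UMIs differed between stages. Of all C/EBP UMIs in the media control, Cebpe gave 33.7% in Elane cells, 50.9% in Ngp cells and 23.6% in Retnlg cells. Cebpb gave 39.3%, 31.97% and 58.5% in the same stages. Cebpa gave 5.89% in Elane cells and 0.821% in Retnlg cells. With deoxycholic acid Cebpb gave 24.0%, 21.2% and 46.6%, and Cebpe 44.2%, 61.2% and 32.7%. A member's share also depends on the levels of the others. Cebpe itself stood at 156 CPM in the media control and 159 CPM with deoxycholic acid in Elane cells, and at 383 and 388 CPM in Ngp cells.

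Between the libraries, Cebpb was the member that stood apart. In all kept cells it was at 229.8 CPM (228 to 232) in the media control and 121 CPM (119 to 123) with deoxycholic acid, a log2 ratio of -0.92 (-0.95 to -0.89). A filter of 20 CPM and 50 UMIs, applied to whichever library was higher, left 4670 genes to be tested. Of these, 3.17% were lower with deoxycholic acid by a log2 ratio of at least 0.5 and 1.69% were higher by as much. Cebpb was the only one of the 4 members tested that lay past either limit, and it ranked 26 from the lowest ratio. These values chose the members, and nothing is read from the count.

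The other members lay nearer to equal levels. Cebpd was at 88.5 CPM (87.0 to 89.9) in the media control and 73.8 (72.3 to 75.4) with deoxycholic acid, a log2 ratio of -0.26 (-0.30 to -0.22). Cebpa, which did not reach 20 CPM in either library and was therefore not among the genes tested, was at 18.3 CPM (17.7 to 19.0) and 14.9 (14.2 to 15.6), a log2 ratio of -0.30 (-0.39 to -0.22). Cebpg was at 26.3 CPM (25.5 to 27.1) and 24.6 (23.7 to 25.5), a log2 ratio of -0.10 (-0.16 to -0.03). Cebpe was at 301 CPM (299 to 304) and 306 (303 to 309), a log2 ratio of 0.02 that lay at -0.03 with size factors or trimmed means as the scaling. The median log2 ratio of all tested genes was 0.04.

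**Figure D3:**
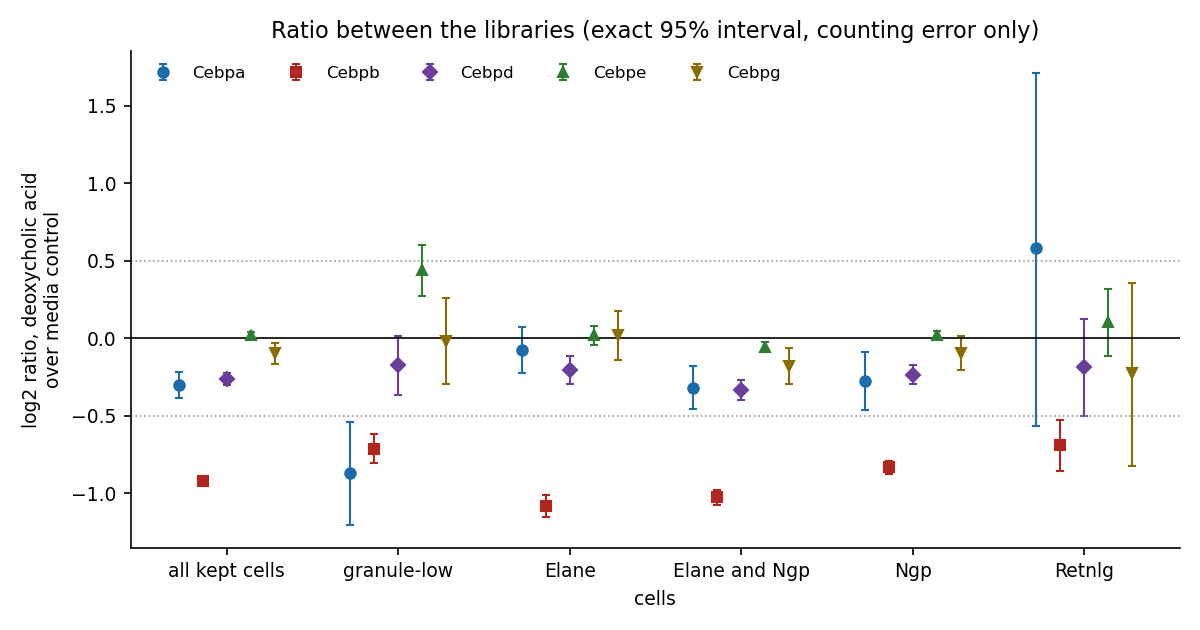
Log2 ratio of deoxycholic acid over media control (vertical axis) for each member in all kept cells and in the 5 stages (horizontal axis), with exact 95% intervals; dotted lines mark 0.5 and -0.5. Cebpb lay below -0.5 in all 5 stages, and the other members lay between the lines except Cebpa in granule-low cells (-0.87) and in Retnlg cells (0.58, from 16 and 14 UMIs).

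Within the stages Cebpb was lower with deoxycholic acid each time. Its log2 ratios were -0.71 (-0.81 to -0.62) in granule-low, -1.08 (-1.16 to -1.01) in Elane, -1.03 (-1.07 to -0.98) in Elane and Ngp, -0.83 (-0.88 to -0.79) in Ngp and -0.69 (-0.86 to -0.53) in Retnlg cells. The share of tested genes lower by at least 0.5 was 5.33% in granule-low, 3.69% in Elane, 3.18% in Elane and Ngp, 1.75% in Ngp and 6.77% in Retnlg cells. The share higher by as much was 4.56%, 2.73%, 2.32%, 1.24% and 5.56% in the same order, and no tested member lay there. Cebpb ranked 19 of 4503 from the lowest in Elane cells and 17 of 4529 in Elane and Ngp cells. It ranked 96 of 5088 in granule-low and 95 of 3381 in Retnlg cells. The ratio was thus lowest in the stages with Elane, where Cebpb itself was lowest.

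The granule-low stage held the other differences. Cebpa was at 25.7 CPM in the media control and 14.1 CPM (11.5 to 17.1) with deoxycholic acid there, from 299 and 103 UMIs, a log2 ratio of -0.87 (-1.21 to -0.54) that lay at -0.52 with stage limits doubled. The clusters with the highest Cebpa made up less of the deoxycholic acid library: the basophil-like cluster held 1.79% and 1.16% of cells, and the cluster led by Hpgd and Ccr2 held 5.77% and 4.09%. Inside these clusters the Cebpa ratios were -0.37 (-1.11 to 0.32) and -0.16 (-0.40 to 0.08); the part of these shares in the stage's ratio was not tested. Cebpe was at 55.7 CPM and 75.4 (69.3 to 82.0) in granule-low cells, a log2 ratio of 0.44 (0.27 to 0.60) that lay at 0.25 with limits doubled. The stage genes stood with it, Elane at 257 and 309 CPM and Ngp at 299 and 359 CPM, and the part of this in the Cebpe value was not tested.  In the Elane stage, by contrast, Cebpa was at 27.3 and 26.0 CPM (-0.07, -0.22 to 0.07) and Cebpe at 156 and 159 (0.02, -0.04 to 0.08).

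The lower Cebpb was seen as fewer cells with a UMI and as fewer UMIs in those cells. After thinning to 3000 UMIs, which left out 253 media control and 224 deoxycholic acid cells, a Cebpb UMI was found in 48.5% (47.4 to 49.6) and 30.7% (29.7 to 31.8) of the remaining cells; before thinning the shares were 91.2% and 73.9%. In the Elane stage the thinned shares were 41.3% (38.6 to 44.1) and 22.6% (20.3 to 25.1). In Ngp cells they were 49.9% and 32.3% (30.8 to 33.9), and in Retnlg cells 70.4% and 55.9% (48.9 to 62.7). Cells with 3 or more Cebpb UMIs made up 6.56% of the first library and 2.10% of the second. Over the same thinned cells, Cebpe was found in 53.7% (52.6 to 54.7) and 55.3% (54.2 to 56.4) of cells, a share that was not lower with deoxycholic acid.

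**Figure D4:**
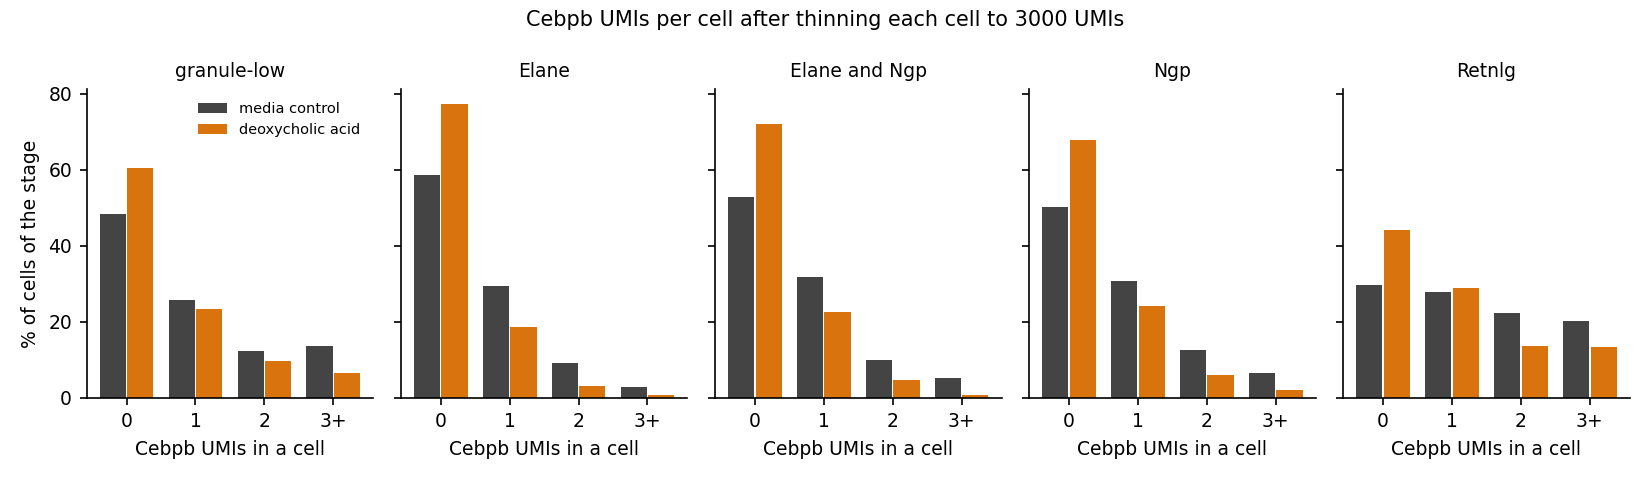
Share of the cells of each stage (vertical axis, percent) with 0, 1, 2 or at least 3 Cebpb UMIs (horizontal axis) after every cell was thinned to 3000 UMIs, for both libraries. Cells without a Cebpb UMI were 58.7% (media control) and 77.4% (deoxycholic acid) of the Elane stage, and 29.6% and 44.1% of the Retnlg stage.

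Shares this low need a background, since free RNA gives UMIs in cells that do not express a gene. In the cluster led by Cdkn2a and Cald1, which carried stromal markers (6 of 8 raised, among them Col1a1 and Dcn) and had a median of 3395 UMIs, Cebpb had a UMI in 20 of 54 (37.0%, 24.3 to 51.3) and 4 of 31 (12.9%, 3.63 to 29.8) thinned cells. The Cebpb shares of the Elane stage lay inside these intervals. By summed UMIs, however, Cebpb was at 406 CPM (359 to 459) in the media control cells of that cluster and at 182 CPM in Elane cells. With deoxycholic acid these stood at 80.2 CPM (52.4 to 118) and 86.0 CPM. The cluster thus gives no background for Cebpb, and what part of the Elane stage shares is free RNA was not tested. Cebpe had a UMI in 1 of 54 and 4 of 31 thinned cells of the cluster. Cebpa had none in those cells, which allows a share of up to 5.56% and 9.68%. The thinned media control shares of Cebpa were 6.72% (5.43 to 8.22) in Elane cells, above that library's limit with an interval that reaches below it, and 2.89% in Ngp cells, below the limit. By summed UMIs, Cebpa was at 3.08 CPM (0.373 to 11.1) in the media control cells of that cluster and at 27.3 CPM (25.6 to 29.1) in Elane cells. The media control Cebpe shares of 36.9% and 62.6% in the same stages lay above the stromal interval of 0.0469% to 9.89%. With deoxycholic acid the stromal interval was 3.63% to 29.8%. The Cebpe shares of 39.0% in Elane and 62.4% in Ngp cells lay above it. The granule-low share of 20.2% lay inside it, so the Cebpe level of that stage is not clear of background there.

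Members were found together in cells about as often as their separate shares give. Cebpb and Cebpe both had a UMI in 25.9% of thinned media control cells, and the product of their shares was 26.0%. With deoxycholic acid both values were 17.0%. Cebpa and Cebpe were together in 2.54% of media control cells against a product of 2.62%, and Cebpd and Cebpe in 12.8% against 12.2%. Cebpa and Cebpe stood at 1.66% against 1.98% with deoxycholic acid.

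Clusters drawn without the 5 members gave the same picture of Cebpb. Of 15 clusters, 14 held at least 50 cells of each library, and Cebpb was lower with deoxycholic acid by a log2 ratio of at least 0.5 in 14 of 14, with a median of -0.95. In the remaining cluster, of 22 and 12 cells, it was at 51.5 CPM (30.01 to 82.5) and 48.2 CPM (17.7 to 105), with overlapping intervals. Among the 1025 genes that passed the filter in each of the 14 clusters, 0.683% were lower by as much in every one: Cebpb, Eloc, Ost4, Pfn1, Rpl9, Sod2 and Srsf9. The highest ratio was -0.73 (-0.80 to -0.65), in cluster 0, immature neutrophil-like from its Ltf and Cd177. The lowest was -2.34 (-2.98 to -1.76), in the cluster led by Cdkn2a and Cald1, from 264 UMIs in 87 media control cells and 26 in 64 deoxycholic acid cells. The next lowest were -1.17 in cluster 2, granulocyte-monocyte progenitor-like from its Mpo, Elane and Ctsg, and -1.16 in cluster 1, immature neutrophil-like from its Camp and Fcnb.

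Among the same clusters Cebpb was highest in mature neutrophil-like cells (Mmp9, Cxcr2 and Retnlg), at 618 CPM in the media control and 364 CPM with deoxycholic acid. Basophil-like cells (Prss34, Mcpt8 and Cpa3, with 5 of 9 eosinophil markers also raised) followed with 505 and 293 CPM, and a cluster led by Vcan and S100a4 with 444 and 237 CPM. Among these 14 clusters its media control level was lowest in the cluster led by Hpgd and Ccr2, at 177 and 97.7 CPM, and in both progenitor-like clusters, at 181 and 80.3 and at 180.2 and 85.8 CPM. The deoxycholic acid level of the mature neutrophil-like cells thus lay above the media control level of both progenitor-like clusters.

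**Figure D5:**
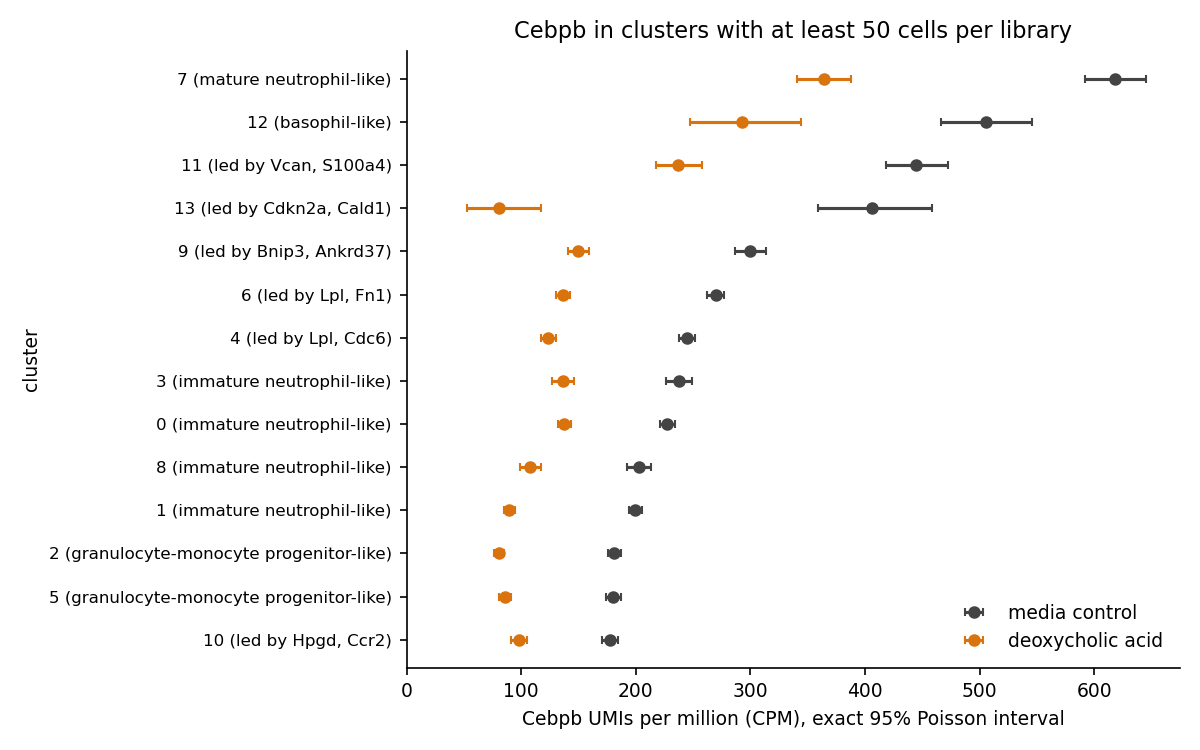
Cebpb in CPM (horizontal axis, exact 95% Poisson intervals) in the 14 clusters with at least 50 cells of each library (vertical axis, ordered by the media control level), 1 point per library. The deoxycholic acid point lay to the left of the media control point in each cluster, and the cluster led by Cdkn2a and Cald1 had the widest gap, 406 against 80.2 CPM.

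No other member was lower by at least 0.5 in each of these clusters. Cebpd was lower with deoxycholic acid in 13 of 14 clusters, from -0.40 to -0.12, the exception being the cluster led by Cdkn2a and Cald1 with 8 and 10 UMIs. Cebpa was lower in 12 of 14, past 0.5 in immature neutrophil-like cluster 8 (-0.60, -1.21 to -0.02), and higher by 1.00 in the cluster led by Cdkn2a and Cald1, from 2 UMIs in each library. Cebpg was lower in 11 of 14, past 0.5 in 2 of them. One was the cluster led by Cdkn2a and Cald1 (-1.32, -3.75 to 0.50), and in mature neutrophil-like cells it stood at 34.0 and 23.7 CPM (-0.52, -0.99 to -0.06). Cebpe was lower in 8 and higher in 6 of 14. Its lowest ratio was in basophil-like cells, at 112 and 66.1 CPM (-0.76, -1.35 to -0.20), and its highest in the cluster led by Cdkn2a and Cald1 (1.84, from 14 and 25 UMIs).

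Cebpa had its highest level outside the neutrophil clusters, in basophil-like cells, with 59.6 CPM in the media control and 46.1 CPM with deoxycholic acid. The cluster led by Hpgd and Ccr2 followed with 30.7 and 27.5 CPM and had low Cebpe, at 51.7 and 63.4 CPM. Cebpe was highest in immature neutrophil-like clusters 1 and 0, at 439 and 420.2 CPM in the media control. Cebpg was highest in a cluster led by Bnip3 and Ankrd37, genes induced by low oxygen, at 45.6 CPM in the media control and 40.5 CPM with deoxycholic acid.

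Cycling cells, with at least 5 UMIs per 10000 over 12 genes of mitosis such as Mki67 and Top2a, were compared with the rest. The log2 ratio of Cebpb was -0.94 (-0.97 to -0.90) in cycling and -0.89 (-0.95 to -0.82) in non-cycling cells. In the cycling cells of the Retnlg stage it was -0.26, with an interval from -0.80 to 0.25 that included 0. Within the Ngp stage Cebpe was higher in cycling cells, at 404 CPM against 295 in the media control and 411 against 292 with deoxycholic acid. Cebpb had the reverse order there, at 231 CPM in cycling and 279 in non-cycling media control cells, and at 129.5 and 156 with deoxycholic acid. In the Elane stage Cebpa was at 25.7 CPM in cycling and 38.1 in non-cycling media control cells, and at 25.5 and 28.0 with deoxycholic acid.

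Some properties of the Cebpb transcript were set beside the ratio. Cebpb has 1 exon and a longest transcript of 1504 bases in GENCODE vM21. The 84 tested genes of 1 exon, which include Cebpb, had a median log2 ratio of 0.02. Of them 1.19% were lower by at least 0.5, a share made up by Cebpb alone. Genes with transcripts of 1000 to 2000 bases had a median of -0.11, with 6.48% lower by at least 0.5, and those of 2000 bases or more a median of 0.11; the part of length in the Cebpb value was not tested. The RefSeq neighbours of Cebpb, Tmem189 and Ptpn1, had log2 ratios of 0.17 (0.11 to 0.24) and 0.13 (0.10 to 0.16).

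Genes whose media control levels followed those of a member most closely over the 14 clusters were found among 4130 genes, by Pearson's r of log2(CPM + 10); clusters share their library, and the values are a description. For Cebpe they were Serpinb1a, an inhibitor of neutrophil proteases (r = 0.97), Agpat2 (0.95), Clec4a2 (0.94), Stim1 (0.93) and Gca (0.91). With deoxycholic acid Serpinb1a stood at 0.89 and Agpat2 at 0.97. For Cebpb they were Map1lc3b, which encodes an autophagosome protein (0.91), Zfand5 (0.90), Tgoln1 (0.90), Chmp4b (0.90) and Zfp36l1 (0.89); Chmp4b was at only 0.32 with deoxycholic acid and Zfand5 at 0.94. For Cebpa they were Gtf2b (0.95, and 0.54 with deoxycholic acid), Cbfa2t3, a myeloid transcriptional co-repressor (0.95 and 0.92), Tmbim4, Plekhj1 and Mapkapk3. For Cebpd they were Arhgdib (0.97 and 0.96), Chst12, Stim1, Ncf4 and Tmem40. For Cebpg the values were lower, at 0.71 for Gbe1, 0.69 for Pgk1, 0.68 for Zfp292 and Uba7 and 0.67 for Ubr2. Of the 14 clusters, the one led by Cdkn2a and Cald1, with 87 media control cells, had the lowest Cebpa, Cebpd and Cebpe. They stood there at 3.08, 12.3 and 21.6 CPM, and the next lowest Cebpd level was 46.1 CPM, in basophil-like cells. How far this cluster alone sets the r values was not tested.

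Lists of partners, regulators and target genes were read in all kept cells, beside the median of 0.04 over all tested genes and the shares of 3.17% lower and 1.69% higher given above. Most tested genes lay above 0, as Cebpe, at 0.02, ranked 2163 of 4670 from the lowest. Of 17 genes listed as dimer partners and modifiers 9 were tested, with a median log2 ratio of 0.32, 1 higher by at least 0.5 and none lower. That one was Jun, a zipper protein of AP-1, at 349 CPM in the media control and 509 CPM with deoxycholic acid (0.54). Fos, its usual partner, was at 138 and 183 CPM (0.41). Cebpz, which shares the family's name but is not a known dimer partner, was at 135 and 177 CPM (0.38). Atf4, the partner of C/EBP gamma, stood at 0.05, Junb at -0.22 and Cebpzos, which also shares the name only, at -0.25.

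Of 29 regulators and co-acting factors 15 were tested, none past 0.5 in either direction, with a median of 0.06. Csf2rb, the shared receptor chain for GM-CSF, was at 77.2 and 95.9 CPM (0.31), followed by Klf5 (0.20) and Nfe2 (0.18). Gfi1, a repressor needed for neutrophil formation, was at 30.2 and 23.2 CPM (-0.38), with Id1 at -0.36 and Myb at -0.19.

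Many granule genes are known targets of C/EBP alpha and epsilon, and few genes of the granule lists lay past 0.5. The lists also hold genes whose proteins are not granule proteins, such as Calr, S100a8 and S100a9. The stage genes Elane, Ngp and Retnlg are on these lists as well. Of 8 primary granule genes tested 7 had ratios below 0, with a median of -0.23, and 1 was lower by at least 0.5, Ctsg (cathepsin G), at 2151 CPM in the media control and 1469 CPM with deoxycholic acid (-0.55). Ms4a3 stood at -0.44 and Nkg7 at -0.34, while Mpo (myeloperoxidase) was at 607 and 689 CPM (0.18). Prss57 (-0.03) and Calr (-0.07) were near 0. Of 15 secondary and tertiary granule genes tested none lay past 0.5, with a median of 0.07. Of these, 10 had ratios above 0 and 5 below. Cd177 (0.29), S100a8 (0.27) and Ltf (lactoferrin, 0.26) had the highest ratios, and Camp (cathelicidin, -0.34), S100a9 (-0.21) and Orm1 (-0.16) the lowest. No difference between the lists was tested.

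Genes listed as inflammatory targets of C/EBP beta had ratios on both sides of 0. Only 8 of the 22 reached the filter, with a median of 0.11 and 5 of them above 0. Il4ra was at 16.6 and 20.7 CPM (0.32). It reached 20 CPM only with deoxycholic acid, so its place among the 5 follows from the filter, and nothing is read from its direction. Nfkbiz was at 24.3 and 30.04 CPM (0.30) and Il1rn, the interleukin 1 receptor antagonist, at 25.4 and 29.4 CPM (0.21). Cxcl2, a neutrophil chemokine, was at 152 and 150.1 CPM (-0.02) and Hp (haptoglobin) at -0.13. The 1 gene lower by at least 0.5 was the chemokine Ccl3, at 68.4 and 35.5 CPM (-0.95), one of the leading genes of the basophil-like cluster, whose smaller share with deoxycholic acid is given above; its part in the Ccl3 value was not tested. Within the stages the list's medians were -0.03 in granule-low, 0.01 in Elane, -0.04 in Elane and Ngp, 0.10 in Ngp and -0.03 in Retnlg cells, over 12, 5, 5, 8 and 10 tested genes. In the same order 3, 1, 1, 1 and 2 of these were lower by at least 0.5, and 1 gene, in granule-low cells, was higher by as much. Named after their values were seen, these were Ccl3 in all 5 stages, Ccl2 and Ccl4 in granule-low cells and Cd14 in Retnlg cells. The higher one was Saa3. Ccl4 is also a leading gene of the basophil-like cluster, and Ccl2 of the cluster led by Cdkn2a and Cald1. Most cells of both clusters were granule-low. Like the basophil-like cluster, the one led by Cdkn2a and Cald1 was a smaller share with deoxycholic acid (0.825%, against 1.02% without it). What part cell makeup has in the Ccl2 and Ccl4 values was not tested. The shares of all genes are given with the stages.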

How the data were processed

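The authors deposited 1 table of raw UMI counts by gene and cell. They used Cell Ranger 6.0, per the submitters' processing notes, and the Chromium 3′ kit, version 3.1, per the labels' protocols. The genome build and cell filters were not given in the sources used here. Every column name gave a group, and 0 columns of other samples were left aside. The members and the gene lists were chosen with earlier results of these data known.

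Cells with at least 300 genes and at most 10% mitochondrial UMIs were kept. Scrublet (scanpy 1.11.5) marked 0.0441% and 0.0481% of cells by its own threshold; the highest 6% of scores in each library were therefore removed, which with ties came to 6.27% and 6.80%. Leiden clusters (resolution 1, leidenalg 0.10.2, igraph 0.11.9) used 2000 variable genes without the 5 members, 30 components and 15 neighbours. A cluster was named from at least 3 raised markers, with more markers among its 10 leading genes than any other class. The rule gave a monocyte name, from 3 raised markers, to the cluster led by Hpgd and Ccr2, in which 7 progenitor markers were also raised; it was called by its genes, a choice made after its values were seen.

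UMIs were summed over cells and divided by the total. Intervals are exact 95% (Poisson for levels, Clopper-Pearson for shares and for the split of UMIs between libraries); a count of 0 was given a limit of 3 counts. Tested genes had 20 CPM or more, and at least 50 UMIs, in the library where they were higher. Named genes were the members, the 5 genes most like each, and the 3 highest and 3 lowest ratios of each list, besides the stage genes, cluster markers, the genes lower in every cluster and the neighbours of Cebpb. Python 3.11.15, numpy 2.4.6, scipy 1.17.1 and pandas 2.3.3 were used, and the ratio computation was tested on simulated data. Transcript length and exons came from GENCODE vM21, and promoters and neighbours from RefSeq (GRCm38.p6), matched by symbol (3 of 5 members for promoters). Alternatives changed the scaling, filters, stage limits, clustering and thinning.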

Additional observations from a re-analysis of the deposited data

How the results depend on the processing

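No paired analysis was possible because the cell names carry no sample letter and each group is 1 library; for the same reason no replicate could be left out. Cebpb stayed below 0 between the libraries in 53 of 53 alternative values (-1.14 to -0.67), as did Cebpd (-0.48 to -0.13); Cebpa kept its sign in 52, and Cebpe and Cebpg did in 45 each. In all kept cells, size factors gave -0.97 for Cebpb, -0.31 for Cebpd and -0.0311 for Cebpe, and trimmed means -0.98, -0.32 and -0.0334; these scalings shift all ratios by 0.05 and 0.06. The mean of ratios within clusters gave -0.21 for Cebpa, -1.03 for Cebpb, -0.14 for Cebpd, 0.0921 for Cebpe and -0.17 for Cebpg. These within-cluster means, the removal of shared barcodes and the next total were added after seeing the data. A total without the 50 most abundant genes gave 0.0481 for Cebpe. For Cebpb, size factors and trimmed means both gave -1.08 in Elane and Ngp cells and -0.89 in Ngp cells, doubled stage limits gave -1.08 in Elane and Ngp cells, and a mean over cells gave -0.94 in granule-low cells. With stage limits halved the Cebpa ratio in Retnlg cells was -0.71, and its log2 ratio of Retnlg over Ngp cells in the media control was 0.39; the cause was not tested. With no filter on genes the share lower by at least 0.5 in all kept cells was 12.4% in place of 3.17%, and in Ngp cells 10.7% in place of 1.75%. At resolution 2 Cebpb was lower in 28 of 28 clusters. Depth limits Cebpa most: in Retnlg cells a level rests on 16 and 14 UMIs.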
